A study of Mus musculus with 1 sample.

Results

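The nuclear long non-coding RNAs described here were the transcripts of Malat1, Neat1, Kcnq1ot1, Lncpint and Gm26917, 5 of the 32285 genes in the deposited count matrix. They were selected on measured values: their UMIs along bins of the ribosomal protein share of a barcode, within barcodes of 3 lineages and in near-empty droplets. Each captured RNA molecule is labelled with a UMI, and each droplet with a barcode. The values used for the selection are therefore a description, carry no test and support nothing by themselves. The matrix came from 1 library of 1 mouse in the vehicle group (phosphate-buffered saline given every 3 days), so no comparison between mice was possible. The mouse carried small cell lung cancer (SCLC) of the autochthonous model, in which Rb1 and Trp53 are deleted by Cre recombinase from an adenovirus instilled into the airways. The study used mice of both sexes on a C57BL/6 background, and the labels give neither the age nor the sex of this animal. From 150 µl of blood, red cells were lysed and T cells were left untouched while other cells were removed with antibodies (Pan T Cell Isolation Kit II). The labels call the tissue PBMC and the cells T lymphocytes.

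Most messenger RNAs leave the nucleus to be translated, whereas Malat1, Neat1 and Kcnq1ot1 are long non-coding RNAs retained in the nucleus, at chromatin or in nuclear bodies. Malat1 is an abundant RNA of nuclear speckles, the stores of splicing factors, and Neat1 is the scaffold of paraspeckles. Kcnq1ot1 is the imprinted antisense RNA that silences neighbouring genes in cis, Lncpint is a p53-responsive intergenic RNA, and Gm26917 is a poorly characterised transcript, for which neither the gene type nor a nuclear location was checked here. Ribosomal protein messenger RNAs are short, abundant and translated in the cytoplasm, so their share of a droplet's UMIs sets the members against a cytoplasmic class.

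The matrix held 12855001 UMIs over 300213 barcodes. A limit of 1331 UMIs, which is the 99th percentile of the 3000 largest totals divided by 10, left 1600 barcodes with 1334 to 18399 UMIs and a median of 3934. Of these, 521 had under 5% of their UMIs in 86 ribosomal protein genes, 90 had 5 to 10%, 245 had 10 to 20%, 314 had 20 to 30% and 430 had over 30%. The median total was 2854 UMIs in the lowest bin and 8076 in the highest. Mitochondrially encoded genes took 2.70% of the UMIs in the lowest bin, 3.39% at 5 to 10% and 1.43% in the highest bin. A productive T cell receptor contig was found for 20.5% of the barcodes in the lowest bin and 91.9% in the highest. In the lowest bin, 369 of the 521 barcodes held a UMI of Cd3d, Cd3e, Cd3g or Trac, 72 held a UMI of the platelet genes Pf4 or Ppbp, 26 held at least 2 UMIs of the globin gene Hbb-bs and 20 held a UMI of the neutrophil gene Retnlg. The 4 erythroid markers together stood at 479 UMIs per 10000 in the lowest bin and at 0.143 or less in each of the other 4 bins. The 3 neutrophil markers stood at 71.4 in the lowest bin, 12.25 at 5 to 10%, 2.01 at 10 to 20%, 0.0262 at 20 to 30% and 0.0057 in the highest. The SCLC tumour markers together stood at 0.118 per 10000 or less in each bin. The levels and ratios of the members are therefore also given within lineages and without these other cells, whereas the gene lists, thinned shares and near-empty droplets are given pooled only.

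The members differ in length and position, and the sequences below show features that the selection did not use. On GRCm39 (GENCODE vM39), Malat1 lies on the minus strand at chr19:5845717-5853602 and Neat1 on the same strand at chr19:5874736-5897132, 21133 bases from Malat1. All 7886 bases of Malat1 and all 22397 bases of Neat1 are exonic. Kcnq1ot1 covers 118926 bases at chr7:142731402-142850327 on the minus strand, wholly antisense within Kcnq1, a potassium channel gene with 1 UMI in the 1600 barcodes. Lncpint covers 138108 bases at chr6:31059500-31197607 on the minus strand, and 9.95% of them are exonic. Gm26917 (ENSMUSG00000097971) was not matched in that annotation, so no position is given for it. Whether reads were counted by strand or in introns is not given in the sources used here, so reads of the members and of antisense genes cannot be told apart. Besides Kcnq1, the measured antisense genes had few UMIs: Frmd8os at Neat1 had 6, Gm13833 at Lncpint had 3 and 2210408F21Rik at Lncpint had 28.

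Droplet assays prime reverse transcription on runs of A, and the members differ in such runs, which is why they are shown. In the longest annotated transcript of each gene, runs of at least 10 A were found once in Malat1 and 10 times in Kcnq1ot1 and were not found in Neat1 or Lncpint. Such a run occurs in 8.86% of 152099 lncRNA transcripts and in 15.9% of 180384 protein-coding transcripts. These shares are not matched for length, since the median lengths are 747 and 2864 bases. The longest transcripts have 7886 bases for Malat1, 22397 for Neat1, 93092 for Kcnq1ot1 and 3705 for Lncpint. Over all annotated transcripts, 1 of 23 of Malat1 and 3 of 8 of Kcnq1ot1 hold a run. The Malat1 run of 12 A lies 299 bases before the annotated end, directly before the transfer RNA-like stretch that is known to be cleaved off when the mature 3′ end forms. The longest Kcnq1ot1 run has 41 A. Capitals mark the run, with 20 bases on either side, written 5′ to 3′ on the minus strand of GRCm39 (chr19:5845996-5846047 and chr7:142780662-142780742).
Malat1 A run: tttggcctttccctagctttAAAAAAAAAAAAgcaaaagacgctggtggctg
Kcnq1ot1 longest A run: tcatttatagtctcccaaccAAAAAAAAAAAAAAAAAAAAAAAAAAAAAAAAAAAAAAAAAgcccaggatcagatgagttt

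The promoters are shown because the members were high in the same bins. RefSeq promoter sequences (GRCm38.p6, 250 bases before to 50 after the start) were matched for 3 members: Malat1 (chr19:5802623-5802922), Kcnq1ot1 (chr7:143296498-143296797) and Lncpint (chr6:31218425-31218724), all on the minus strand. They were searched on both strands for the TATA box (TATAAA), the CCAAT box (as spelled), the E-box (CACGTG) and the GC box (GGGCGG), of which no matches overlapped. Kcnq1ot1 held 3 matches to CCAAT, with first bases 188, 148 and 67 before the start, and 37.4% of 32851 promoters of this length hold at least 1. Lncpint held 1 match to CACGTG, and 7.15% of the promoters do. In Malat1 none of the 4 motifs was found, which says only that these letters are not in this window. No motif was shared by any pair of the 3 promoters, and their G and C content was 47% in Malat1, 53.3% in Kcnq1ot1 and 58.7% in Lncpint, against a median of 52.7% over all promoters. Capitals mark the matches.
Malat1 promoter: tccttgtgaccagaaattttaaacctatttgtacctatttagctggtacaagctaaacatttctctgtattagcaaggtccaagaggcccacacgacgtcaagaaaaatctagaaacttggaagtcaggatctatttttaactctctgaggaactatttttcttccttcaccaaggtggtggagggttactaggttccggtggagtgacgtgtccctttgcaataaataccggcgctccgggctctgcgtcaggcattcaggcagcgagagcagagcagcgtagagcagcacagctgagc
Kcnq1ot1 promoter: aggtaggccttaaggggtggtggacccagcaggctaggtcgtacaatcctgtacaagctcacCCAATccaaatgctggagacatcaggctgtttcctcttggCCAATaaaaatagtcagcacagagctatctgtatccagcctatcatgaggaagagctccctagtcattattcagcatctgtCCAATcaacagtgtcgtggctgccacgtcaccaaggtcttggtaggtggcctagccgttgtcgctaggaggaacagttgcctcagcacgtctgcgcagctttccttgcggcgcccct
Lncpint promoter: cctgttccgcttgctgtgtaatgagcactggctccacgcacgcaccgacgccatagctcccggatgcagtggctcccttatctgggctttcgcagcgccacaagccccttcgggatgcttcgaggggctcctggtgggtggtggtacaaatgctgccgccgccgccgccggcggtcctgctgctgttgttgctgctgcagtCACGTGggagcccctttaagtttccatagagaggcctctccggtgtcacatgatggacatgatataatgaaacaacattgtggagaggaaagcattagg

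Malat1 supplied most of the members' RNA. It had 90504 UMIs in the 1600 barcodes, which was 90.7% of the 99744 UMIs of the members together. Gm26917 followed with 4157 UMIs (4.17%) and Lncpint with 3433 (3.44%), whereas Neat1 had 923 and Kcnq1ot1 had 727. At least 1 UMI of Malat1 was found in 1572 barcodes, of Gm26917 in 1052, of Lncpint in 983, of Neat1 in 630 and of Kcnq1ot1 in 444. These numbers are not per length and do not order the genes by transcription.

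As pooled rates, all 5 members stood highest where ribosomal protein RNA was lowest. Pooled over the barcodes of each bin, Malat1 was at 231.5 UMIs per 10000 UMIs (95% exact Poisson interval 229 to 234) under 5%, 228 at 5 to 10%, 124 at 10 to 20%, 101.0 at 20 to 30% and 53.1 (52.3 to 53.8) over 30%. The first 2 bins of Malat1 had overlapping intervals, and each later bin was below the one before it beyond counting error. Neat1 was at 2.07 (1.86 to 2.31), 1.89, 1.68 (1.45 to 1.94), 1.10 (0.940 to 1.28) and 0.545 (0.470 to 0.628) per 10000. The intervals of Neat1 overlapped among the first 3 bins, and the 2 bins from 20% on were lower than these and than each other beyond counting error. Intervals here and below cover counting error only, in 1 library, and say nothing about the spread between mice.

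For Kcnq1ot1 and Lncpint the bins differed mostly below a ribosomal share of 20%. Kcnq1ot1 was at 2.25, 1.54, 0.758, 0.543 and 0.464 UMIs per 10000 along the bins, and the last 2 had overlapping intervals (0.433 to 0.673 and 0.396 to 0.542). Lncpint was at 13.1, 8.54, 2.35, 1.85 and 1.67 per 10000, and again the last 2 overlapped (1.64 to 2.08 and 1.53 to 1.81). Gm26917 had the sharpest first step, from 16.2 (15.6 to 16.8) under 5% to 5.89 (5.03 to 6.86) at 5 to 10%. Its later bins were at 2.44, 2.15 and 2.40 per 10000, with overlapping intervals. Between the bins of 20 to 30% and over 30%, Malat1 and Neat1 thus differed beyond counting error and the other 3 members did not.

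**Figure D1:**
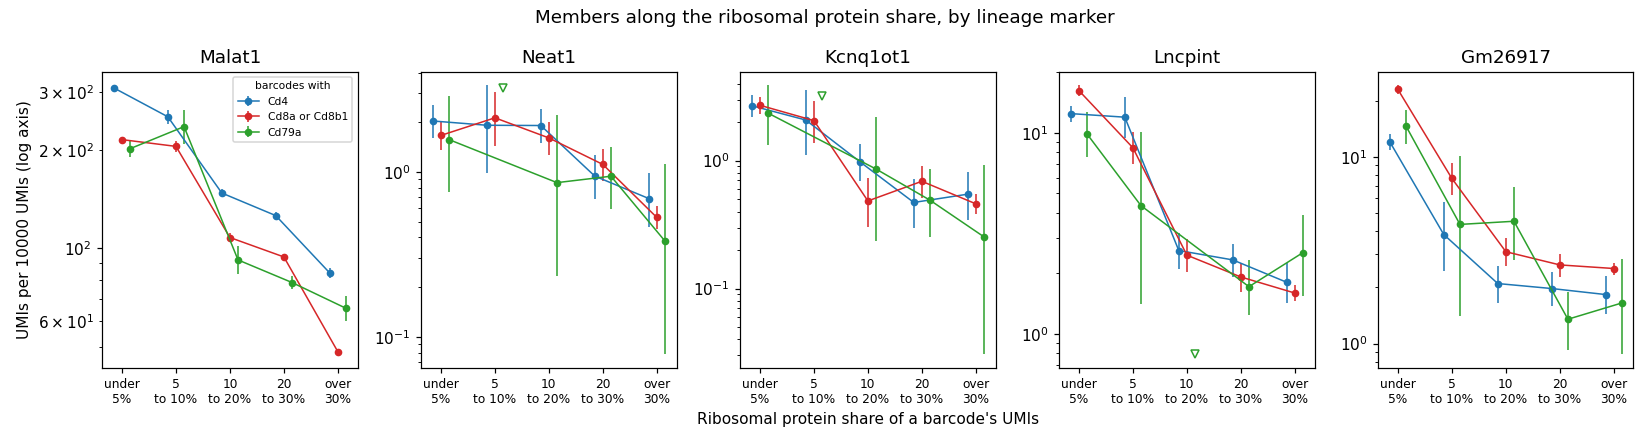
UMIs of each member per 10000 UMIs (log axis) in barcodes with a UMI of Cd4, of Cd8a or Cd8b1, or of Cd79a, along bins of the ribosomal protein share; bars are exact 95% Poisson intervals and open triangles are upper limits where no UMI was counted. Malat1 stands between 202 and 309 under 5% and between 48.2 and 84.0 over 30%, and in the Gm26917 panel the Cd8 barcodes stand at 22.9 under 5% against 12.0 for Cd4.

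Compared with the 744 barcodes of 20% ribosomal protein share and over, the lowest bin had 3.42 times the Malat1 rate (95% exact conditional interval 3.37 to 3.47) and 2.90 times the Neat1 rate (2.49 to 3.38). The ratio was 4.61 for Kcnq1ot1 (3.90 to 5.44), 7.61 for Lncpint (7.02 to 8.24) and 6.97 for Gm26917 (6.50 to 7.47). All 5 of 5 members had a ratio of at least 2, and 41.1% of the 4281 genes with at least 300 UMIs did so, while 19.0% had a ratio of 0.5 or lower; since the members were selected on this contrast, nothing is read from the count. Among the 4281 genes, 99.2% had a lower ratio than Lncpint, 98.9% a lower one than Gm26917, 92.4% a lower one than Kcnq1ot1, 80.8% a lower one than Malat1 and 73.9% a lower one than Neat1. The order was therefore Lncpint and Gm26917, whose intervals overlapped, then Kcnq1ot1, and then Malat1 and Neat1, whose intervals overlapped at their edges.

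A rate per 10000 depends on what else a barcode holds, and the ratios were smaller on other scales. Per barcode, without any denominator, the lowest bin held 70.3 Malat1 UMIs and the barcodes of 20% and over held 45.6, a ratio of 1.54 (1.52 to 1.57). The corresponding numbers were 0.630 and 0.481 for Neat1 (ratio 1.31), 0.683 and 0.329 for Kcnq1ot1 (2.08), 3.98 and 1.16 for Lncpint (3.43) and 4.91 and 1.57 for Gm26917 (3.14). Per UMI outside the ribosomal protein genes, the ratios were 2.30 for Malat1, 1.96 for Neat1, 3.10 for Kcnq1ot1, 5.12 for Lncpint and 4.69 for Gm26917. Thus the members were more numerous per droplet in the lowest bin than at 20% and over also in absolute UMIs, although the totals there were lower. This did not hold against every bin, since Neat1 had 0.751 UMIs per barcode at 10 to 20% and Malat1 had 70.9 at 5 to 10%. Over all 4281 genes, the median ratio per barcode was 0.712, and 37.1% of the genes had more UMIs per barcode in the lowest bin. In barcodes of 2000 to 4000 UMIs alone, the ratio of the rates was 1.83 for Malat1 (1.79 to 1.89) and 1.62 for Neat1 (1.22 to 2.16), but 6.02 for Kcnq1ot1 and 7.79 for Gm26917.

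**Figure D2:**
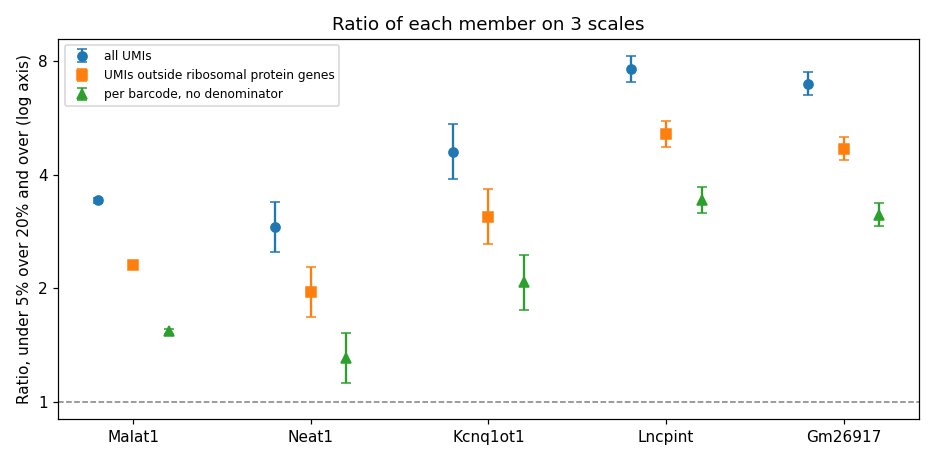
Ratio of each member between barcodes under 5% and of 20% and over in ribosomal protein share (log axis), as UMIs per all UMIs, per UMIs outside ribosomal protein genes, and per barcode; bars are exact 95% intervals of counting error and the dashed line marks a ratio of 1. All points lie above 1, from 1.31 for Neat1 per barcode to 7.61 for Lncpint per all UMIs.

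Single barcodes varied widely around these rates. The median barcode had 226.7 Malat1 UMIs per 10000 in the lowest bin, with quartiles of 153 and 329, against a median of 46.6 and quartiles of 33.6 and 73.9 over 30%. As plain numbers, the median was 66 Malat1 UMIs in the lowest bin and 40 over 30%, so the boxes lay apart as rates and overlapped as UMI numbers. At 5 to 10%, the median barcode had 234.7 Malat1 UMIs per 10000 and the median number was 70, both above the lowest bin. Of the 521 barcodes in the lowest bin, 25 had no Malat1 UMI, and of those 25, 14 held at least 2 Hbb-bs UMIs and 13 held a UMI of Pf4 or Ppbp, groups that can share barcodes. After each barcode was thinned to 1331 UMIs, a Neat1 UMI was found in 25.3% of the lowest bin (exact binomial interval 21.7 to 29.3) and in 10.5% of the barcodes of 20% and over (8.38 to 12.9), against 41.65% and 35.5% before thinning. For Kcnq1ot1 the thinned shares were 22.5% and 4.97%, for Lncpint 64.3% and 21.0% and for Gm26917 64.7% and 23.0%, against 36.7% and 22.5%, 75.4% and 55.0%, and 76.6% and 62.4% before thinning.

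**Figure D3:**
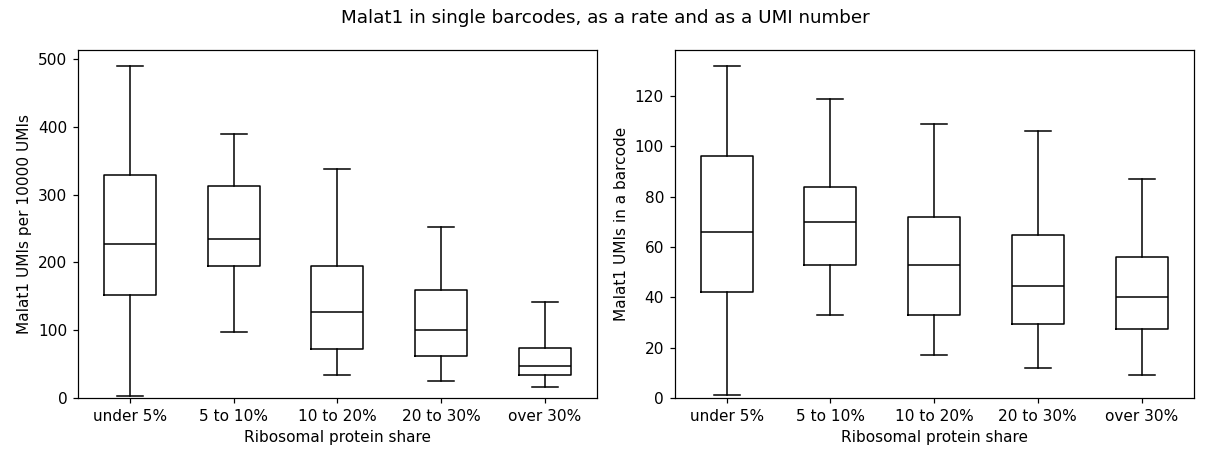
Malat1 in single barcodes of the 5 ribosomal protein bins, as UMIs per 10000 UMIs and as UMIs in a barcode; boxes show the quartiles with the median and whiskers reach the 5th and 95th percentiles. The median rate is 226.7 under 5% and 46.6 over 30%, whereas the median UMI number is 66 and 40. At 5 to 10% the medians are 234.7 and 70.

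Within each lineage, every member had a higher rate in the lowest bin than at 20% and over, although the single bins did not follow each other in order everywhere. Malat1 in Cd79a barcodes was at 202 (191 to 213) under 5% and 235.5 (208 to 265) at 5 to 10%, the latter on 5 barcodes. Kcnq1ot1 in Cd8 barcodes was at 0.484 (0.303 to 0.733) at 10 to 20% and 0.690 (0.513 to 0.907) at 20 to 30%. Neat1 in Cd8 barcodes was at 1.66 (1.36 to 2.01) under 5% and 2.13 (1.435 to 3.04) at 5 to 10%. The intervals overlapped in each of these cases. Lncpint in Cd79a barcodes had 0 UMIs at 10 to 20% (12 barcodes, upper limit 0.794) and was at 1.72 (1.24 to 2.32) at 20 to 30%, beyond counting error. Barcodes with a Cd4 UMI numbered 418, those with Cd8a or Cd8b1 768 and those with the B cell gene Cd79a 106, and 49 barcodes held both Cd4 and Cd8. For Malat1, the ratio of the lowest bin to 20% and over was 2.92 in Cd4 barcodes (2.84 to 3.001), 3.74 in Cd8 barcodes (3.66 to 3.82) and 2.68 in Cd79a barcodes (2.499 to 2.86). That reference was uneven, with over 30% making up 322 of the 452 Cd8, 71 of the 177 Cd4 and 12 of the 66 Cd79a barcodes. At 20 to 30% alone, Malat1 was at 126, 94.0 and 78.5 per 10000 in Cd4, Cd8 and Cd79a barcodes. The lowest bin stood at 309, 215 and 202, so against 20 to 30% alone the ratio in Cd8 barcodes was not the highest. Against 20% and over, Lncpint had ratios of 5.99 (5.04 to 7.14), 9.77 (8.82 to 10.8) and 5.15 (3.57 to 7.44), so on the rate scale its interval in Cd8 barcodes lay above those of both other lineages. Gm26917 had 6.31 (5.27 to 7.58), 9.004 (8.29 to 9.79) and 10.25 (7.13 to 14.9), with Cd4 below Cd8 on that scale. Kcnq1ot1 had 5.30, 5.35 and 5.43, which did not differ beyond their intervals. Neat1 had 2.47, 2.57 and 1.95, and its interval in Cd79a barcodes, 0.839 to 4.18, included 1 and rested on 10 and 26 UMIs. The Cd79a ratios rested on 23 barcodes in the lowest bin, and some Cd79a barcodes also held Cd4 or Cd8 UMIs. In Cd79a barcodes without those UMIs, the ratio was 3.35 (2.04 to 5.42) for Lncpint and 6.59 (4.06 to 10.8) for Gm26917. In Cd4 and Cd8 barcodes with a marker of 1 lineage only, the ratios of these genes stayed within the intervals above. Per barcode, the differences between lineages were smaller for Malat1 and Lncpint. The ratio was then 1.63 in Cd4 and 1.62 in Cd8 barcodes for Malat1, and for Lncpint it was 3.33 (2.81 to 3.98), 4.24 (3.83 to 4.69) and 2.92 (2.02 to 4.21) in Cd4, Cd8 and Cd79a barcodes, with overlapping intervals. Gm26917 had 3.52 (2.94 to 4.22) in Cd4, 3.91 (3.60 to 4.25) in Cd8 and 5.80 (4.03 to 8.45) in Cd79a barcodes, whose intervals also overlapped. The per-barcode ratios of Kcnq1ot1 were 2.95 (2.05 to 4.295), 2.32 (1.87 to 2.87) and 3.075 (1.38 to 6.875). They lay further apart than as rates, with overlapping intervals. The per-barcode ratio of Neat1 was 1.38 (0.985 to 1.93) in Cd4, 1.12 (0.878 to 1.41) in Cd8 and 1.10 (0.475 to 2.37) in Cd79a barcodes, so its interval included 1 in each lineage.

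The lineages also differed in level within the lowest bin, where their median totals were nearer to each other than in the other bins compared. Malat1 was at 309 per 10000 (304 to 315) in the 132 Cd4 barcodes of that bin, 215 (211 to 218.5) in the 181 Cd8 barcodes and 202 (191 to 213) in the 23 Cd79a barcodes, whose median totals were 2738, 3294 and 2647 UMIs. Gm26917 had the reverse order for the T cell markers, with 12.0 (10.9 to 13.2) in Cd4 and 22.9 (21.8 to 24.1) in Cd8 barcodes. Lncpint was likewise lower in Cd4 (12.5, 11.4 to 13.7) than in Cd8 barcodes (16.2, 15.3 to 17.3). Kcnq1ot1 was at 2.69 and 2.71 and did not differ beyond counting error. In the bins of 20% and over, Malat1 was at 106 in Cd4, 57.5 in Cd8 and 75.3 in Cd79a barcodes, but there the median totals were 4540, 8010 and 4170 UMIs, and per barcode the numbers were 53.1, 46.2 and 36.9.

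Naive and effector T cell barcodes differed in the rate of Malat1. Naive barcodes were taken as those with a T marker, a UMI of Ccr7 or Lef1, which mark naive and central memory T cells, and none of Gzma, Gzmb, Gzmk, Ccl5 or Nkg7. Effector barcodes had a T marker and at least 2 UMIs of those genes together. These groups were not split by lineage, and the part of lineage in their values was not tested. For comparison, Malat1 at 20% and over was at 106 per 10000 in Cd4 and 57.5 in Cd8 barcodes. At 20% and over, Malat1 was at 109 per 10000 in 224 naive barcodes and 52.5 in 403 effector barcodes, whose median totals were 4100 and 8399, and per barcode the values were 49.7 and 44.3. In the lowest bin, it was at 284 in 251 naive and 208 in 63 effector barcodes, with median totals of 2815 and 4211, but per barcode the order was the opposite, with 81.5 and 88.4 Malat1 UMIs. Gm26917 went the other way, at 1.95 (1.69 to 2.24) in naive and 2.57 (2.40 to 2.74) in effector barcodes at 20% and over. The 13 barcodes with Foxp3, the regulatory T cell factor, had 92.7 Malat1 UMIs per 10000 at 20% and over, between the naive and effector values, and the 9 such barcodes of the lowest bin had 339 (317 to 362), above both.

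Neutrophil and erythroid barcodes had other profiles of the members. The 20 Retnlg barcodes of the lowest bin had 32 Neat1 UMIs in 65875, or 4.86 per 10000 (3.32 to 6.86), above the 2.04 (1.60 to 2.55) of Cd4 and the 1.66 (1.36 to 2.01) of Cd8 barcodes in that bin. Their Malat1 rate was 134 (126 to 143.5), below that of each lymphocyte lineage. Lncpint had 3 UMIs there (0.455 per 10000, 0.0939 to 1.33), Kcnq1ot1 had 1, and Gm26917 had 0, which allows up to 0.455 per 10000 by 3 counts. Neat1 was therefore the only one of the 5 that stood higher in Retnlg than in Cd4 and Cd8 barcodes of that bin. The 26 erythroid barcodes held 15 Malat1 UMIs in 95552 (1.57 per 10000, 0.879 to 2.59) and 0 UMIs of the other 4 members, which allows up to 0.314 per 10000 each.

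All 5 ratios were also above 2 when other cells were left out. In barcodes with a T marker and without a Cd79a UMI or a defining marker of platelets, erythroid cells, neutrophils or monocytes, 302 under 5% and 577 of 20% and over, the ratio was 3.96 for Malat1 (3.90 to 4.03), 3.09 for Neat1 (2.57 to 3.72), 5.47 for Kcnq1ot1 (4.502 to 6.65), 8.07 for Lncpint (7.36 to 8.87) and 6.74 for Gm26917 (6.22 to 7.31). In barcodes with a T cell receptor contig, the ratio was 3.87 for Malat1, 2.47 for Neat1, 6.56 for Lncpint and 6.02 for Gm26917. Over all barcodes, the mitochondrial share was 2.70% in the lowest bin, highest at 5 to 10% with 3.39%, and 1.43% over 30%. Its part in these ratios was not tested.

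In barcodes of 10 to 50 UMIs, taken as RNA outside cells, Malat1 stood above and Gm26917 below its level in the barcodes of 20% and over. In the 20532 barcodes of 10 to 50 UMIs, which held 833730 UMIs, Malat1 was at 83.7 per 10000 (81.7 to 85.7), between its levels in the 20 to 30% and the over 30% bins. Neat1 was at 0.648 (0.487 to 0.845), Kcnq1ot1 at 0.336 (0.223 to 0.485) and Lncpint at 2.11 (1.81 to 2.45), against 0.714, 0.488 and 1.72 in the barcodes of 20% and over, with overlapping intervals. Gm26917 was at 0.384 (0.263 to 0.542), below its level in every bin. This did not hold in barcodes of 1 to 9 UMIs, where Gm26917 was at 3.33 (2.53 to 4.29), above its 2.32 at 20% and over. Per all UMIs, the other members also stood higher there than in barcodes of 10 to 50 UMIs. The intervals of Neat1 overlapped (0.777 to 1.88 and 0.487 to 0.845). Gm42418, a locus that carries ribosomal RNA sequence, took 31.7% of the UMIs in the barcodes of 10 to 50 UMIs. At 20% and over it was at 202 per 10000. Per UMI outside it, the barcodes of 10 to 50 UMIs had Malat1 at 123, Neat1 at 0.949, Kcnq1ot1 at 0.492, Lncpint at 3.09 and Gm26917 at 0.562. On that scale Lncpint stood above its level at 20% and over, so its overlap held per all UMIs only. In barcodes of 1 to 9 UMIs, Gm42418 took 7.32% of the UMIs. Per UMI outside it, Malat1 was at 113 in those barcodes, below its 123 at 10 to 50 UMIs, whereas each other member was still higher at 1 to 9 UMIs. With 5% of each barcode's UMIs taken as free RNA, 1.81% of the Malat1 and 0.119% of the Gm26917 UMIs in the lowest bin would be free, and 6.19% and 0.826% at 20% and over. In the erythroid barcodes, whose cells lose the nucleus as they mature, Malat1 stood at 1.88% of its free level (upper limit 3.09%).

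Between near-empty droplets and cells, Gm26917 departed from the other 4 members. From 51 to 100, 101 to 200 and 201 to 499 UMIs per barcode, Malat1 was at 77.7, 54.8 and 28.9 per 10000 and Lncpint at 1.95, 1.38 and 0.691. Neat1 and Kcnq1ot1 also had their lowest point at 201 to 499 UMIs, with 0.178 and 0.0669 on 8 and 3 UMIs. Gm26917 was at 0.714 (0.613 to 0.826), 2.86 (2.46 to 3.31) and 7.71 (6.92 to 8.57) in the same classes. The mitochondrial share there was 0.644%, 4.98% and 6.90%, and its part in the Gm26917 values was not tested.

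**Figure D4:**
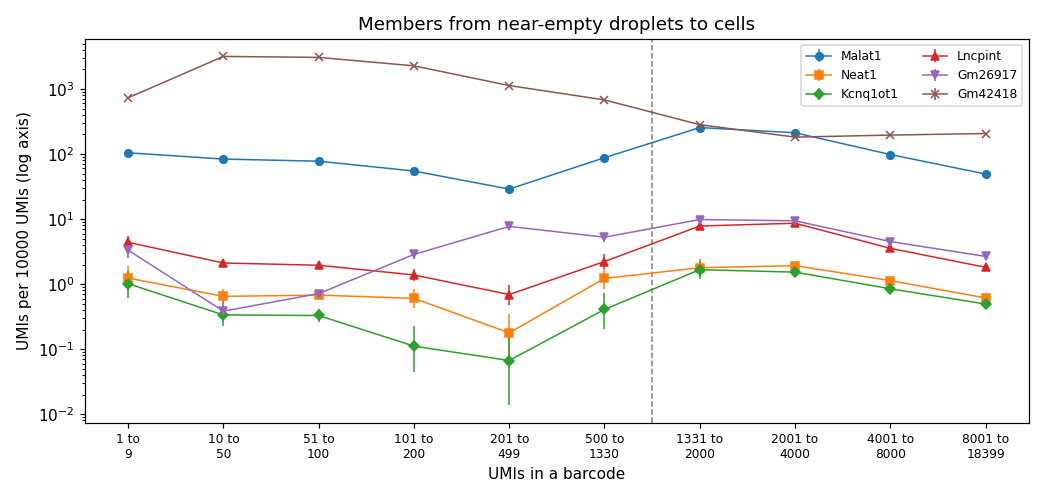
UMIs of the 5 members and of Gm42418 per 10000 UMIs (log axis) in barcodes grouped by their total; bars are exact 95% Poisson intervals and the dashed line is the limit of 1331 UMIs. Gm26917 stands at 7.71 in the class of 201 to 499 UMIs, where Malat1 has its lowest value of 28.9.

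Malat1, Neat1 and Lncpint had ratios at the upper end of those of coding genes of like span, and Kcnq1ot1 did not. Of protein-coding genes outside the ribosomal protein genes, the 681 spanning under 10000 bases had a median ratio of 0.430 between the lowest bin and 20% and over, and the 735 spanning 100000 bases and over a median of 3.96, with 93.2% of these at 2 or more. Malat1, with a span of 7886 bases and a ratio of 3.42, was reached by 19 of the 681 short genes (2.79%). Within the T barcodes without other markers, 1 of the 681, Ccl6, named after its value was seen, reached the ratio of Malat1, on 3 and 2 UMIs. Neat1 was reached by 20 of 1194 coding genes spanning 10000 to 30000 bases (1.68%), whose median was 0.897. Kcnq1ot1 was reached by 233 of the 735 long genes (31.7%), whereas Lncpint was reached by 13 (1.77%). In those T barcodes, Neat1 was reached by 25 of the 1194 genes (2.09%). Of the 735 long genes, 185 (25.2%) reached Kcnq1ot1 and 19 (2.585%) reached Lncpint there. Since the members were selected on this contrast, these positions are a description.

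**Figure D5:**
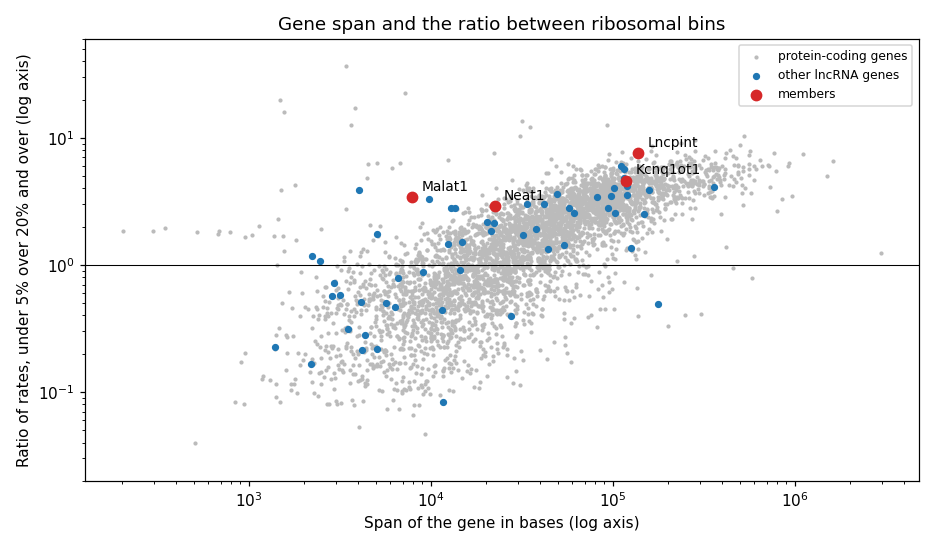
Ratio of the rate under 5% to that at 20% and over in ribosomal protein share against the span of the gene, both on log axes, for 4099 protein-coding genes outside the ribosomal protein genes, the other lncRNA genes and the 4 members with a position; 8 genes with a ratio above 60 are outside the plot. Malat1 and Neat1 lie above most genes of their span, as does Lncpint, and Kcnq1ot1 lies among genes of its span.

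Other lncRNAs went in both directions along the bins. Among the 54 other lncRNA genes with at least 300 UMIs the median ratio was 1.73, against 1.58 over all 4281 genes, and 44.4% had a ratio of at least 2 and 22.2% of 0.5 or lower, against 41.1% and 19.0% of all genes. From a list of 27 named lncRNAs, 24 were in the file and 12 had at least 300 UMIs, of which 3 (25%) had a ratio of at least 2 and 5 (41.7%) of 0.5 or lower. Dleu2, the host of a microRNA cluster, had the highest ratio of these, 5.73 (4.87 to 6.75), and Xist, the nuclear RNA that coats the inactive X chromosome, had 2.99 (2.75 to 3.26). Gas5, which hosts small nucleolar RNAs and is spliced and exported, had 0.282 (0.249 to 0.319). Epb41l4aos had the lowest, 0.219, Mir142hg had 1.08 and Gm42418 had 0.866. All other genes annotated as lncRNA, a set without Gm42418, which was not matched, took 2.25% of the UMIs in the lowest bin and 1.27% over 30%, and the 5 members 2.65% and 0.581%. Per barcode the other lncRNA genes had fewer UMIs in the lowest bin, 68.3 against 103 over 30%, whereas the members had 80.5 and 47.2.

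Messenger RNAs of proteins that reside in nuclear speckles and paraspeckles had ratios from 0.573 to 3.73. Of a list of 20 such genes, 19 had at least 300 UMIs, with a median ratio of 1.45, and 5 (26.3%) reached 2 while none was at 0.5 or lower, against 41.1% and 19.0% of all 4281 genes. Pspc1, a paraspeckle protein, had the highest ratio of 3.73 (3.07 to 4.53), and its paraspeckle partners Sfpq and Nono, named after their values were seen, had 1.82 and 0.660. Srrm2 and Son, the scaffolds of nuclear speckles, had 2.13 and 1.45, the RNA helicase Ddx5 had 1.18, the splicing regulator Hnrnpa2b1 had 0.959, and Hnrnpk had the lowest, 0.573. All 15 of a list of abundant cytoplasmic messenger RNAs had a ratio of 0.5 or lower, with a median of 0.214. They included the actin gene Actb (0.356), the actin-binding thymosins Tmsb4x (0.3165) and Tmsb10 (0.0912) and the elongation factor Eef1a1 (0.155), and they ran from Tpt1 (0.0737) to the ubiquitin gene Ubb (0.494).

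Across 10 groups, the 5 bins in Cd4 and in Cd8 barcodes, the genes with the most similar rates were named for each member by Pearson's r of log2 (UMIs per 10000 + 0.1). For Malat1 these were Stat5b, a transcription factor of cytokine signalling (r = 0.989), Retreg3 (0.983) and Smg6, a nuclease of nonsense-mediated decay (0.983). For Neat1 they were Atp6v0a2 (0.963), Fam53b (0.961) and the phosphatase Ptpn1 (0.956). Kcnq1ot1 was closest to the histone acetyltransferase Kat6b (0.995), Zmym4 (0.992) and the cohesin regulator Pds5a (0.989). Lncpint was closest to Zcchc7 (0.997), Ythdf3 (0.994), a reader of methylated RNA, and the transcription factor Tcf12 (0.993), and Gm26917 to March3 (0.991), Dym (0.981) and the ubiquitin ligase Smurf1 (0.980). Among the members, r was 0.962 for Kcnq1ot1 with Lncpint and 0.558 for Neat1 with Gm26917. High values were common, with r over 0.9 for 1011 genes with Lncpint, 826 with Kcnq1ot1, 626 with Malat1, 209 with Gm26917 and 65 with Neat1, and the groups share the library, the depth pattern and the bins. With a pseudocount of 1, 1 of the 3 genes named for Gm26917 and 2 of the 3 for each other member were still among the closest 3.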

How the data were processed

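Droplet gene expression and T cell receptor libraries of blood T cells from 1 vehicle-treated mouse were analysed. The authors processed the reads with Cell Ranger (version 4 in the file header, build GRCm38 in the submitters' processing notes), and the deposited matrix holds raw UMI counts for all barcodes, near-empty ones included. Barcodes of at least 1331 UMIs were kept. No doublet caller was run: 49 kept barcodes held Cd4 and Cd8, 3 Cd4 and Cd79a, 13 Cd8 and Cd79a, and 373 none of the 3. UMIs were pooled per bin and given per 10000 with exact 95% Poisson intervals, ratios with exact conditional binomial intervals and shares with exact binomial intervals after thinning to 1331 UMIs. PCR and capture error are not covered by them. Ly6c2, which T cells also express, was not used to leave out monocytes. With 1 library, no test was made. Ratios over genes used those with at least 300 UMIs. Ensembl identifiers matched GENCODE vM39 for 31674 of 32285 genes and for 4273 of the 4281 genes compared. Members, lists and groups were chosen with earlier results of these data known. Named genes were the members, Gm42418, overlapping genes, the 3 genes most like each member, and from each list the 4 with most UMIs and those with the highest and lowest ratio. The interval functions were tested on simulated counts. Python 3.11.15, NumPy 2.4.6, pandas 2.3.3, SciPy 1.17.1 and matplotlib 3.10.9 were used. Other denominators, cell limits, barcode sets and pseudocounts were tried as alternatives.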

Additional observations from a re-analysis of the deposited data

How the results depend on the processing

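No ratio of the lowest bin to 20% and over had a value below 1 under any alternative run, but the interval of Neat1 included 1 in Cd79a barcodes and, per barcode, also in Cd4 (0.985 to 1.93) and Cd8 barcodes (0.878 to 1.41), and of the recomputed ratios 70 left the counting interval of the value reported and 62 did not. No paired analysis was possible because there was 1 library, and no replicate could be left out. Per UMI outside ribosomal protein genes, the ratio was 2.304 for Malat1, 1.955 for Neat1, 3.101 for Kcnq1ot1, 5.12 for Lncpint and 4.689 for Gm26917, and with mitochondrial genes also left out it was 2.315, 1.965, 3.116, 5.145 and 4.712. Per barcode it was 1.542, 1.308, 2.075, 3.426 and 3.138. In barcodes of 2000 to 4000 UMIs it was 1.834 for Malat1, 1.616 for Neat1, 6.017 for Kcnq1ot1 and 7.789 for Gm26917. In barcodes with a T cell receptor contig it was 3.87 for Malat1, 2.466 for Neat1, 6.558 for Lncpint and 6.024 for Gm26917. Without barcodes holding defining markers of platelets, erythroid cells, neutrophils or monocytes, it was 3.787 for Malat1, 5.607 for Kcnq1ot1, 8.679 for Lncpint and 7.618 for Gm26917. At a limit of 500 UMIs it was 3.111 for Malat1, 6.788 for Lncpint and 6.349 for Gm26917, and at 2500 UMIs it was 3.305 for Malat1. Against over 30% it was 4.364 for Malat1 and 3.805 for Neat1, and with the bins under 10% joined it was 6.3 for Gm26917. The mean over barcodes gave 2.92 and the subtraction of free RNA 3.582 for Malat1. The cause of these moves was not tested. Denominators outside Gm42418 and lineage ratios per barcode were added after the data were seen. Depth limits Neat1 and Kcnq1ot1 most, with 923 and 727 UMIs.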

Other observations

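Within the bins, the members also differed with depth and mitochondrial share. Among barcodes of 20% and over, 3 equal groups with the lowest, middle and highest totals had 123, 73.3 and 47.4 Malat1 UMIs per 10000 but 40.2, 46.0 and 50.65 Malat1 UMIs per barcode. Gm26917 had 1.93, 2.14 and 2.55 per 10000 in the same groups, so its order was the opposite of that of Malat1 on the rate scale. In the lowest bin, 3 equal groups by mitochondrial share had, from lowest to highest, 10.3, 17.0 and 21.5 Gm26917 UMIs and 8.78, 14.1 and 16.6 Lncpint UMIs per 10000, whereas Neat1 had 2.06, 2.11 and 2.05, which did not differ beyond counting error.

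The spread over barcodes was described by the variance over the mean, which also grows with the mean. After thinning to 1331 UMIs, the variance over the mean among the 521 barcodes of the lowest bin was 11.1 for Malat1, 3.91 for Gm26917, 2.28 for Lncpint, 1.42 for Kcnq1ot1 and 1.13 for Neat1, and at 20% and over it was 7.57, 1.31, 1.12, 1.10 and 1.14. The 10% of lowest-bin barcodes with most UMIs of a member held 22.1% of the thinned UMIs of Malat1, 35.8% of Lncpint, 41.1% of Gm26917, 50.9% of Neat1 and 61.0% of Kcnq1ot1. Just under the cell limit, 51 lowest-bin barcodes of 1000 to 1330 UMIs had 147 Malat1 and 7.26 Gm26917 UMIs per 10000, and just over it, 37 barcodes of 1331 to 1700 UMIs had 271 and 20.5.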
